A study of Mus musculus with 2 samples.

Results

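The major histocompatibility complex (MHC) class I presentation genes are a group of 10 genes, found by symbol in the deposited matrices: B2m, H2-K1, H2-D1, H2-T22, H2-T23, H2-Q7, Tap1, Tap2, Tapbp and Nlrc5. All 10 were among the 32285 genes listed. They are described here across the cell types of mouse bone marrow and between a Phf6 knockout (KO) and a wild-type (WT) background. Mouse bone marrow cells of either background had been transduced with a vector that carries the leukaemia mutation RUNX1-S291fs together with GFP, so the WT cells carry the mutant RUNX1 as well. GFP-positive cells were transplanted into recipient mice. From recipient marrow, 8 weeks after transplant, cells that were GFP-positive and negative for lineage markers were sorted for single-cell RNA sequencing with a 3′ droplet kit. The labels give no strain, age, sex or MHC haplotype, no number of recipients, and no account of which part of Phf6 is deleted.

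The KO library held 120408100 unique molecular identifiers (UMIs, each a counted RNA molecule) over 5260 barcodes, and the WT library 131667969 UMIs over 5287 barcodes. Filtering left 4709 KO cells, at a median of 21421 UMIs, and 4478 WT cells, at a median of 24814 UMIs, and 10 barcodes occurred in both libraries. With 1 library per genotype there is no error between mice and no test: the 95% intervals below (exact Poisson for a level, exact binomial for a ratio) cover counting error only. Levels are UMIs of a gene per 1000000 UMIs (CPM), and ratios are log2 of KO CPM over WT CPM. Phf6 itself stood at 20.6 CPM in the KO library and 41.8 CPM in the WT library, a log2 ratio of -1.02 (interval -1.09 to -0.95). A 3′ tag outside the deleted part does not check the knockout.

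Class I molecules display fragments of the cell's own proteins at its surface, where CD8 T cells and natural killer cells read them. A heavy chain folds with beta-2-microglobulin in the endoplasmic reticulum and is loaded with peptides that the proteasome has cut and a dedicated transporter has brought in. Interferon induces nearly the whole pathway through factors that include IRF1 and NLRC5, of which NLRC5 joins RFX, CREB/ATF and NF-Y factors on class I promoters. Nearly all nucleated blood cells express these genes, and B2m RNA was detected in 98.1% of KO cells and 97.1% of WT cells.

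Gene positions are from GENCODE on GRCm38. B2m, the light chain shared by all class I molecules, lies on chromosome 2 (122147686 to 122153083, plus strand). H2-K1 (chromosome 17, 34000347 down to 33996017, minus strand) and H2-D1 (chromosome 17, 35262730 to 35267499, plus strand) encode the classical, peptide-presenting heavy chains. H2-Q7 (35439155 to 35443773, plus strand of the same chromosome) encodes a Qa-2 chain. H2-T23 (36029773 to 36032855, minus strand) encodes Qa-1, which engages the CD94/NKG2 receptors of natural killer cells, and H2-T22 (36037128 to 36042747, minus strand) encodes a chain recognised by some gamma-delta T cells. Tap1 and Tap2, also on chromosome 17, encode the paired chains of the peptide transporter, and Tapbp (33915899 to 33929292, plus strand) encodes tapasin, which bridges the transporter and the empty heavy chain. Nlrc5, the class I transactivator, lies on chromosome 8 (94434356 to 94527272, plus strand).

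The promoters of B2m and 4 heavy chain genes are shown because class I promoters are where the interferon- and NLRC5-driven factors act. The windows are from RefSeq on GRCm38.p6 and run from 250 bases before to 50 bases after an annotated RefSeq start. That start can differ from the GENCODE one: the H2-D1 and Tapbp windows lie wholly inside the GENCODE genes. Such windows were matched for 8 of the 10 members, all but Tap2 and Nlrc5, and H2-K1 had a pair of overlapping windows of which 1 is shown. Printed 5′ to 3′ on the gene's strand, capitals mark matches on either strand to the core of the interferon-stimulated response element (ISRE: TTTC, any 2 bases, TTTC), TTTCACTT (a shorter form seen in classical class I promoters), GGGNNTTCC (NF-kB), TGACG (the X2 or CRE core bound by CREB/ATF) and CCAAT (the Y box bound by NF-Y).
H2-K1 promoter, chr17:34000298-34000597, minus strand: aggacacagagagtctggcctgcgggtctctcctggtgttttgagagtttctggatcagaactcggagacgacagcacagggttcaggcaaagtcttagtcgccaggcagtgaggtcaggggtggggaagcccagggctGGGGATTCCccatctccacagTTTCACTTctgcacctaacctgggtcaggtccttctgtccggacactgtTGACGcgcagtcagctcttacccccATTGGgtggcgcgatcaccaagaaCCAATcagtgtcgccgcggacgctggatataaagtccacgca
H2-D1 promoter, chr17:35262844-35263143, plus strand: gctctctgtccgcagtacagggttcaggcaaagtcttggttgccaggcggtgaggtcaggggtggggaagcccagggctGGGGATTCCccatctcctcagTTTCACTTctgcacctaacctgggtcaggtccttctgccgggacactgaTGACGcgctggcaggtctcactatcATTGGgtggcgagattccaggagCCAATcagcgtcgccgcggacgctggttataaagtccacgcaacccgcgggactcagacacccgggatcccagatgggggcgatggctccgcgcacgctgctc
H2-Q7 promoter, chr17:35438905-35439204, plus strand: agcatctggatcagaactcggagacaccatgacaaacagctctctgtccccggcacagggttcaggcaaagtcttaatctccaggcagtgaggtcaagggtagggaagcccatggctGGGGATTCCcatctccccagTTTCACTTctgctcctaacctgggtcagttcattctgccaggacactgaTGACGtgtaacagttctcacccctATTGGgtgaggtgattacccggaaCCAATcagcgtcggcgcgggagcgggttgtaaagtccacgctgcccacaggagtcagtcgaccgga
H2-T22 promoter, chr17:36042693-36042992, minus strand: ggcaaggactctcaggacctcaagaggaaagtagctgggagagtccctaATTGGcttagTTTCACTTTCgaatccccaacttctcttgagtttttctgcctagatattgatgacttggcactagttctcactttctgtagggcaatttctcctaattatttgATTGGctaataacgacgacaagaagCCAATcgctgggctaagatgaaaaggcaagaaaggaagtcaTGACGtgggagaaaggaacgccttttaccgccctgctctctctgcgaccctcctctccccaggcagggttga
B2m promoter, chr2:122147437-122147736, plus strand: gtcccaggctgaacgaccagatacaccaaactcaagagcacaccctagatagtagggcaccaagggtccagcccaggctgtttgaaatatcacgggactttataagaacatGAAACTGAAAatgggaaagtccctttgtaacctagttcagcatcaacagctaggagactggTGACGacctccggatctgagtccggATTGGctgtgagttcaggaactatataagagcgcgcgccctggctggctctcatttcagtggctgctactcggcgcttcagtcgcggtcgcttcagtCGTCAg

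H2-K1, H2-D1 and H2-Q7 carried the same elements in the same order: GGGNNTTCC, TTTCACTT, TGACG and then a pair of CCAAT matches in opposite orientation. In H2-K1 the first 3 began at -111, -90 and -41 from the RefSeq start of the window shown. In its other window they began at -125, -104 and -55. They began at -171, -150 and -101 in H2-D1 and at -133, -113 and -64 in H2-Q7. H2-T22 had no GGGNNTTCC match, and its TTTCACTT lay inside an ISRE core at -191. B2m had an ISRE core at -139 on the reverse strand. Over the 8 members with a window, GGGNNTTCC was matched in 3, the ISRE core in 3 (B2m, H2-T22 and H2-T23), TTTCACTT in 4, TGACG in 6 and CCAAT in 8. Over all 32851 windows of the same length the shares were 5.82% for GGGNNTTCC, 3.44% for the ISRE core, 1.6% for TTTCACTT, 20.8% for TGACG and 37.4% for CCAAT. The full NF-kB palindrome, which begins GGGGATT and contains a GGGNNTTCC match, was found in H2-K1 and H2-D1 and in 0.0304% of all windows. GGGCGG, the GC box, was matched in H2-T22, Tap1 and Tapbp and in 35.7% of all windows. TTTCACTT was added to the search after these promoters had been read. A match describes letters in a window and not a bound site.

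Over all cells, the class I genes stood higher in the KO library, most of them by a modest amount. Nlrc5 and H2-T22 were past 1.5-fold, and Tap2 was nearly level. Of the 10 members, 2 were at least 1.5-fold higher, against 2.04% of the 8584 genes measured at 10 CPM or more, and 0 were as much lower, against 1.25%. All 10 ratios lay above 0, as did 61.2% of all genes. The median log2 ratio was 0.35, against 0.06 over all genes.

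Nlrc5 stood at 40.2 CPM in KO cells and 23.5 CPM in WT cells, a log2 ratio of 0.78 (interval 0.71 to 0.84). H2-T22 stood at 65.7 CPM in KO cells and 40.2 CPM in WT cells (0.71, 0.65 to 0.76). These were the only members whose intervals lay wholly above 1.5-fold. B2m, the shared light chain, had 1477 CPM in KO cells and 1117 CPM in WT cells (0.40, 0.39 to 0.41). Among the heavy chains, H2-K1 had 1110 CPM in KO cells and 867 CPM in WT cells (0.36, 0.34 to 0.37), and H2-D1 had 1143 CPM in KO cells and 921 CPM in WT cells (0.31, 0.30 to 0.32). The ratios of the classical chains and B2m lay close together. H2-Q7 had 348 CPM in KO cells and 278 CPM in WT cells (0.33, 0.31 to 0.35), and H2-T23 192 CPM in KO cells and 159 CPM in WT cells (0.27, 0.25 to 0.30). H2-Q7 and its neighbour H2-Q6 are nearly identical, so their reads may be split between them, but summed they gave 420 CPM in KO cells and 333 CPM in WT cells, a log2 ratio of 0.34. The sources used here do not say how reads shared by H2-K1, H2-D1 and other class I copies were assigned.

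The loading genes were not alike. Tap1 had 78.5 CPM in KO cells and 61.7 CPM in WT cells (log2 ratio 0.35, 0.30 to 0.39), and tapasin (Tapbp) 73.2 CPM in KO cells and 56.7 CPM in WT cells (0.37, 0.32 to 0.42). Tap2, the partner of Tap1 in the transporter, had 59.8 CPM in KO cells and 58.5 CPM in WT cells, a log2 ratio of 0.03 whose interval of -0.02 to 0.08 lies below that of Tap1. Its sign was not stable to scaling: the ratio was -0.04 with TMM scaling. Tap2 is the last of 4 neighbouring antigen-processing genes on chromosome 17. Along this stretch the log2 ratio was 0.29 for Psmb9 (34181987 to 34187764, minus strand), 0.35 for Tap1 (34187553 to 34197225, plus strand), 0.20 for Psmb8 (34197721 to 34201454, plus strand) and 0.03 for Tap2 (34203527 to 34216321, plus strand). The starts of Psmb9 and Tap1 overlap on opposite strands, and the sources used here do not state the strand setting of the counting.

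**Figure D1:**
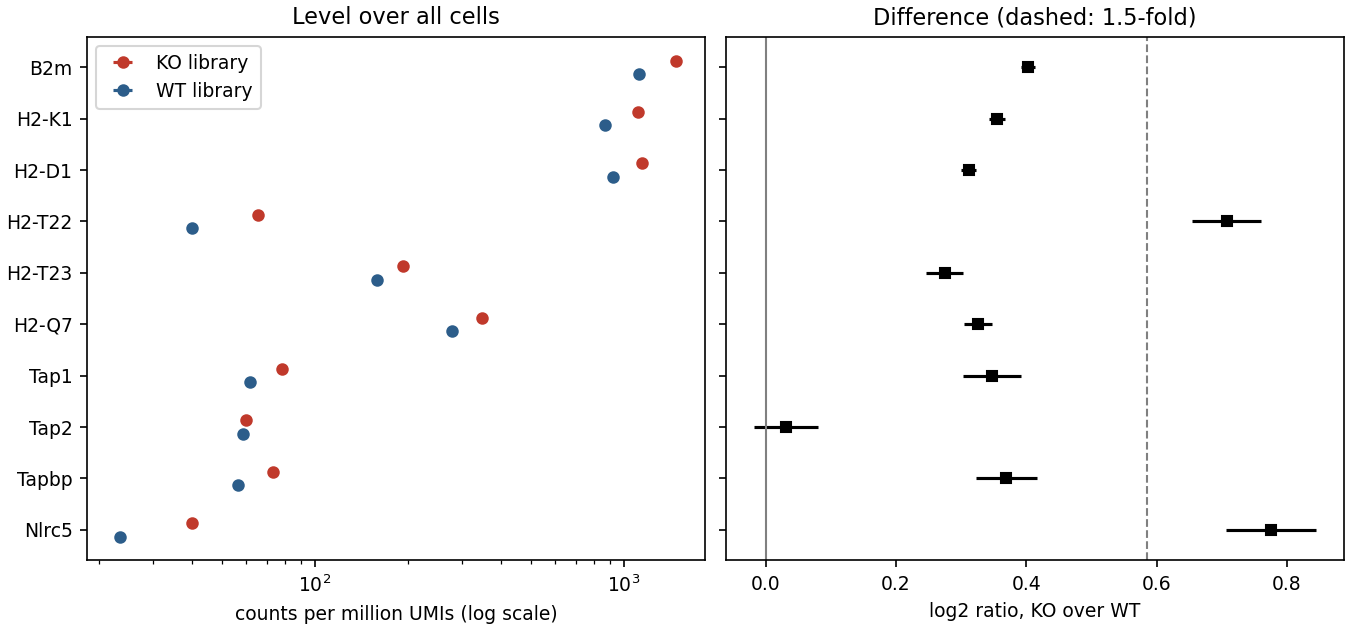
Left, level of each member over all cells in the KO (red) and WT (blue) library, in CPM on a log axis; right, the log2 ratio of KO over WT with its 95% counting interval, with a dashed line at 1.5-fold. H2-T22 at 0.71 and Nlrc5 at 0.78 lie right of the dashed line, and Tap2 at 0.03 lies on 0.

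The libraries differ in their mix of cells. Erythroid markers summed to 490 CPM in the KO library and 1404 CPM in the WT library (0 of 10 markers higher in KO), plasma cell markers to 141 CPM in KO and 914 CPM in WT, and the markers of stem and multipotent progenitors (HSC/MPP) to 1994 CPM in KO and 1608 CPM in WT. T or NK cell markers summed to 40.1 CPM in KO and 54.7 CPM in WT. The next values use only clusters with at least 50 cells in each library, which leaves out plasma cell-like, eosinophil-like and some neutrophil progenitor-like cells. With the same shares of these clusters applied to both libraries, the median ratio of the members was 0.28. With each of these clusters weighted alike it was 0.32.

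To see whether a few cells carried the difference, cells were brought to a common depth of 5000 UMIs by random thinning, and 199 KO cells and 243 WT cells below that depth were left out. For B2m, and for H2-K1 and H2-D1 together, the quartiles and the median were all higher in KO cells. For H2-T23 they were the same in both libraries (quartiles 0 and 2, median 1). The median B2m count per thinned cell was 8 in KO cells (quartiles 5 and 11) and 6 in WT cells (4 and 8). H2-K1 and H2-D1 together had a median of 12 UMIs in KO cells (8 and 16) and 9 UMIs in WT cells (6 and 13). In HSC/MPP-like cells the median of the pair was 14 UMIs in KO (11 and 17) and 12 UMIs in WT (9 and 15), so the quartile ranges of the libraries overlapped widely. In erythroid-like cells it was 10 UMIs in KO (6 and 13) and 6 UMIs in WT (3 and 9.5). For the scarcer genes the thinned share of cells with a UMI tells more. Nlrc5 was seen in 19.0% of thinned KO cells and 11.4% of thinned WT cells (unthinned 48.8% in KO and 38.4% in WT), and H2-T22 in 29.45% of KO and 20.05% of WT cells (unthinned 70.6% in KO and 59.2% in WT). None of the cell types here is known to lack class I genes, so the part of free RNA in these shares was not measured. The lowest thinned Nlrc5 share of a class was in neutrophil progenitor-like cells, 9.38% in KO and 2.89% in WT.

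**Figure D2:**
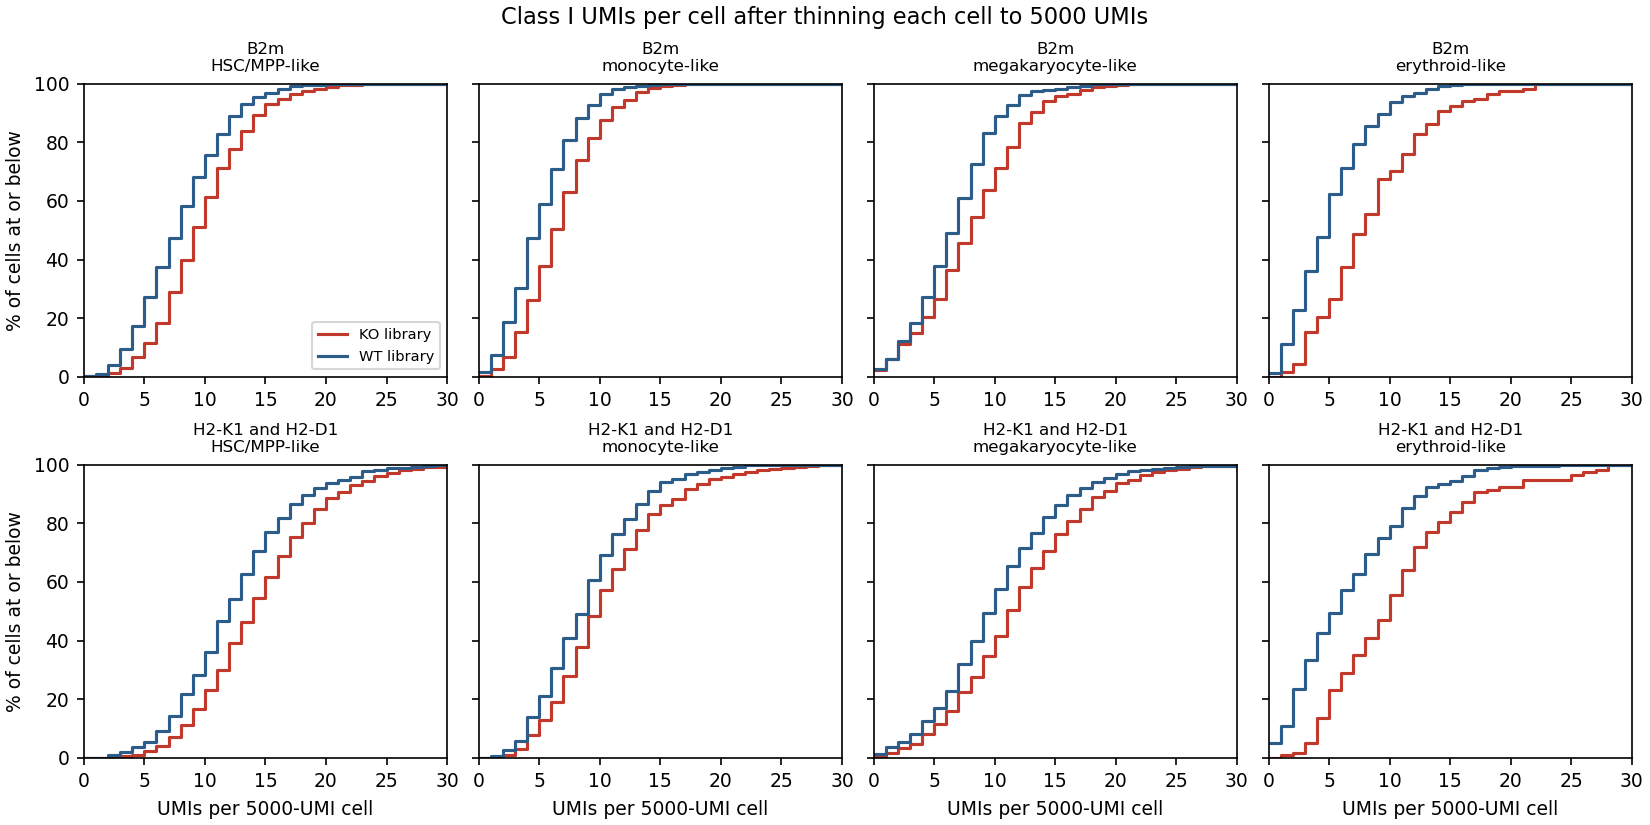
Cumulative share of cells (percent) against UMIs per cell after thinning to 5000 UMIs, for KO (red) and WT (blue) cells. Shown are 4 classes; apart from B2m at 1 UMI in megakaryocyte-like cells (6.16% in KO, 5.91% in WT) and H2-K1 with H2-D1 above 30 UMIs in monocyte-like cells, the KO curves lie to the right, with a median of 14 UMIs in KO and 12 UMIs in WT for H2-K1 and H2-D1 together in HSC/MPP-like cells.

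Cells were grouped into clusters without any class I gene among those used, and clusters were named from marker genes (the ending "like" marks a name given from RNA). The median log2 ratio of the class I genes was above 0 in each of the 7 named classes with at least 50 cells per library, at 0.76 in erythroid-like cells, 0.52 in basophil or mast cell-like cells, 0.49 in B cell-like cells, 0.32 in monocyte-like cells, 0.27 in megakaryocyte-like cells, 0.24 in HSC/MPP-like cells and 0.20 in neutrophil progenitor-like cells. The interval lay above 0 for all 10 members in erythroid-like cells, for 9 in monocyte-like cells, for 8 in HSC/MPP-like, megakaryocyte-like and neutrophil progenitor-like cells, and for 5 in B cell-like and in basophil or mast cell-like cells. The share of all genes with such an interval was not computed, and intervals narrow as UMIs rise, so these counts do not set the members apart. The median log2 ratio over all measured genes in these classes lay between -0.04 and 0.08. Averaged over the middle members, the counting interval of the class I median was -0.25 to 1.23 in B cell-like cells, which includes 0. It was 0.23 to 0.81 in basophil or mast cell-like cells. B2m, H2-K1, H2-D1, H2-T22, H2-T23, H2-Q7, Tap1 and Nlrc5 had ratios above 0 in all 7 classes, against 4.44% of all 8584 genes. Tapbp was below 0 in B cell-like cells alone, at 59.4 CPM in KO and 78.2 CPM in WT, from 20 and 37 UMIs (log2 ratio -0.40, -1.26 to 0.42). Tap2 was below 0 in HSC/MPP-like (-0.02), megakaryocyte-like (-0.08) and neutrophil progenitor-like cells (-0.04), each with an interval that includes 0.

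HSC/MPP-like cells numbered 1200 in KO and 880 in WT, with most KO cells in cluster 0 (696 KO, 325 WT; Mecom and Hlf among its top genes) and more even numbers in clusters 8 and 10. In this class 2 of 10 members were at least 1.5-fold higher, against 4.1% of all genes: Nlrc5, at 61.8 CPM in KO and 39.9 CPM in WT (log2 ratio 0.63, 0.50 to 0.76), and H2-T22, at 89.9 CPM in KO and 58.1 CPM in WT (0.63, 0.53 to 0.74). Both intervals reach below 1.5-fold, and with TMM scaling within the class 0 of 10 were past it. B2m was at 1904 CPM in KO and 1495 CPM in WT (0.35) and H2-K1 at 1578 CPM in KO and 1346 CPM in WT (0.23). Tap1 had 94.2 CPM in KO and 88.5 CPM in WT, and its interval of -0.00 to 0.18 reaches 0. Monocyte markers in the class summed to 157 CPM in KO and 110 CPM in WT, with 8 of 10 higher, and dendritic cell markers to 1227 CPM in KO and 1122 CPM in WT, with Siglech and Itgax at 0 in WT; their part in the result was not tested.

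Monocyte-like cells (956 KO, 792 WT) had a similar picture, with 2 of 10 members past 1.5-fold against 1.25% of genes. Nlrc5 had 33.7 CPM in KO and 19.2 CPM in WT (0.81, 0.65 to 0.98), and H2-T22 56.9 CPM in KO and 36.1 CPM in WT (0.66). Here Tap1 was also higher, at 95.7 CPM in KO and 73.9 CPM in WT (0.37, 0.29 to 0.46), an interval above that of HSC/MPP-like cells. Megakaryocyte-like cells (837 KO, 869 WT) had 1 member past 1.5-fold against 1.26% of genes: Nlrc5, at 38.3 CPM in KO and 24.3 CPM in WT (0.65). Neutrophil progenitor-like cells (356 KO, 526 WT) also had 1, against 1.57%, which was Nlrc5 again, at 18.7 CPM in KO and 11.2 CPM in WT (0.73, 0.44 to 1.03). By CPM, B2m, at 880 CPM in KO and 746 CPM in WT, and H2-D1, at 939 CPM in KO and 836 CPM in WT, differed least in this class among the 7 (0.24 and 0.17). HSC/MPP-like cells were close for H2-D1, at 1181 CPM in KO and 1041 CPM in WT. This ranking did not hold with TMM scaling within the class. That scaling moved ratios by 0.05 in neutrophil progenitor-like cells and by -0.07 in HSC/MPP-like and in megakaryocyte-like cells.

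The small classes rest on few UMIs. Basophil or mast cell-like cells (73 KO, 101 WT) had 5 of 10 members past 1.5-fold, against 10.5% of genes, led by H2-Q7 at 399 CPM in KO and 203 CPM in WT (0.98, 0.75 to 1.21), and H2-K1 stood at 1301 CPM in KO and 855 CPM in WT (0.61). B cell-like cells (51 KO, 68 WT) had 2 of 10, against 17.7% of genes, which were Tap1 (31 and 29 UMIs) and H2-T23 at 267 CPM in KO and 175 CPM in WT (0.61, 0.16 to 1.06). With TMM scaling the counts were 3 in basophil or mast cell-like cells, without B2m and H2-K1, and 1 in B cell-like cells, without Tap1. The B cell-like share is near the background. B2m, H2-K1, H2-D1, H2-T23 and H2-Q7 had intervals above 0 there, but the share of all genes with such intervals was not computed.

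Erythroid-like cells had the largest differences. Of 10 members 9 were at least 1.5-fold higher in KO, against 6.87% of all genes in the class, and Tap2, the exception, had 47.7 CPM in KO and 33.0 CPM in WT (log2 ratio 0.53, 0.31 to 0.76). H2-D1 and Tapbp, both at 0.60, were just past 1.5-fold, and with TMM scaling within the class they were not, which left 7 of 10. Nlrc5 stood at 46.9 CPM in KO and 16.1 CPM in WT (1.55, 1.28 to 1.81). H2-T22 stood at 54.5 CPM in KO and 24.8 CPM in WT (1.14), and H2-Q7 at 382 CPM in KO and 183 CPM in WT (1.06, 0.97 to 1.14). B2m had 1417 CPM in KO and 821 CPM in WT (0.79), and H2-K1 866 CPM in KO and 495 CPM in WT (0.81). In WT, erythroid-like cells were the lowest of the 7 classes for 6 members (H2-K1, H2-D1, H2-T22, Tap1, Tap2 and Tapbp), as for 24.7% of all genes; in KO they were the lowest for 2 (H2-D1 and Tapbp), as for 15.1% of all genes. The intervals overlap those of the next class for H2-T22 and Tap1 in WT and for Tapbp in KO.

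The class is small and differs in make-up between the libraries: 118 KO cells with a median of 35799 UMIs, and 306 WT cells with a median of 47667 UMIs. The 4 haemoglobin genes together took 5979 CPM in KO and 10536 CPM in WT. Erythroid markers summed to 6590 CPM in KO and 8988 CPM in WT, HSC/MPP markers to 494 CPM in KO and 363 CPM in WT (8 of 10 higher; Procr at 0 in both), and megakaryocyte markers to 219 CPM in KO and 134 CPM in WT. Macrophage markers were near 0, at 3.82 CPM in KO and 3.21 CPM in WT. Within cluster 13, the erythroid-like cluster with more haemoglobin RNA (7795 CPM in KO, 13008 CPM in WT), H2-K1 was at 728 CPM in KO and 360 CPM in WT (1.01, 0.95 to 1.08). In cluster 15, where haemoglobin was 250.04 CPM in KO and 562 CPM in WT, H2-K1 was at 1301 CPM in KO and 1041 CPM in WT (0.32). Whether KO and WT cells of the class stood at the same stage was not tested.

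A finer view is given by the 20 clusters with at least 50 cells in each library. B2m, H2-K1, H2-D1, H2-T22, H2-T23 and H2-Q7 were higher in KO in 20 of 20 clusters, Nlrc5 in 19, Tap1 and Tapbp in 18 and Tap2 in 9. Between 42.9% and 61.2% of genes were higher in KO in a single cluster, but genes higher in every cluster were rare: 31 of 8584, or 0.361%, of which 6 were members. At 50 CPM or more they were 15 of 3367 genes, or 0.446%, with 6 of the 9 members at that level among them. At 100 CPM or more they were 10 of 1653 genes, or 0.605%, and all 5 members at that level were among them (B2m, H2-D1, H2-K1, H2-Q7 and H2-T23). The other 5 were AY036118, Rsrp1, Pbx3, Fnip1 and Pura. With edgeR's TMM scaling within each cluster, chosen after seeing the data, H2-T23 was higher in 19 clusters and Tap1 in 16, and the other counts were as above. All 20 clusters compare the same pair of libraries, so likeness across clusters is no independent support.

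The interval of the ratio lay above 0 in 20 clusters for B2m, H2-K1 and H2-D1, in 19 for H2-Q7, 18 for H2-T22, 13 for Tapbp and Nlrc5, 12 for H2-T23 and 8 for Tap1. The share of all genes with such intervals was not computed. These counts depend on UMI number as well as on the ratio: the median cluster ratio was 0.66 for Nlrc5 and 0.24 for H2-D1. Tap2 was the exception, with an interval above 0 in 1 cluster and below 0 in 3. Its interval was below 0 in cluster 8 of HSC/MPP-like cells (log2 ratio -0.23), in cluster 3 (Cpa3, Flt3 and Satb1 among its top genes), at 63.9 CPM in KO and 88.7 CPM in WT (-0.47, -0.64 to -0.30), and in cluster 17 (Siglech, Klrd1 and H2-Aa), at 56.9 CPM in KO and 89.7 CPM in WT (-0.66, -1.10 to -0.23). In cluster 17, Nlrc5 was higher, at 75.1 CPM in KO and 30.1 CPM in WT (1.32, 0.79 to 1.87). T or NK cell markers in that cluster summed to 1346 CPM in KO and 915 CPM in WT, and dendritic cell markers to 6544 CPM in KO and 8912 CPM in WT; their part was not tested. Nlrc5 was past 1.5-fold higher in 11 clusters and H2-T22 in 15, while B2m was in 3, H2-K1 in 2 and H2-D1 in 1. In single clusters 0.917% to 17.7% of genes were that much higher.

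**Figure D3:**
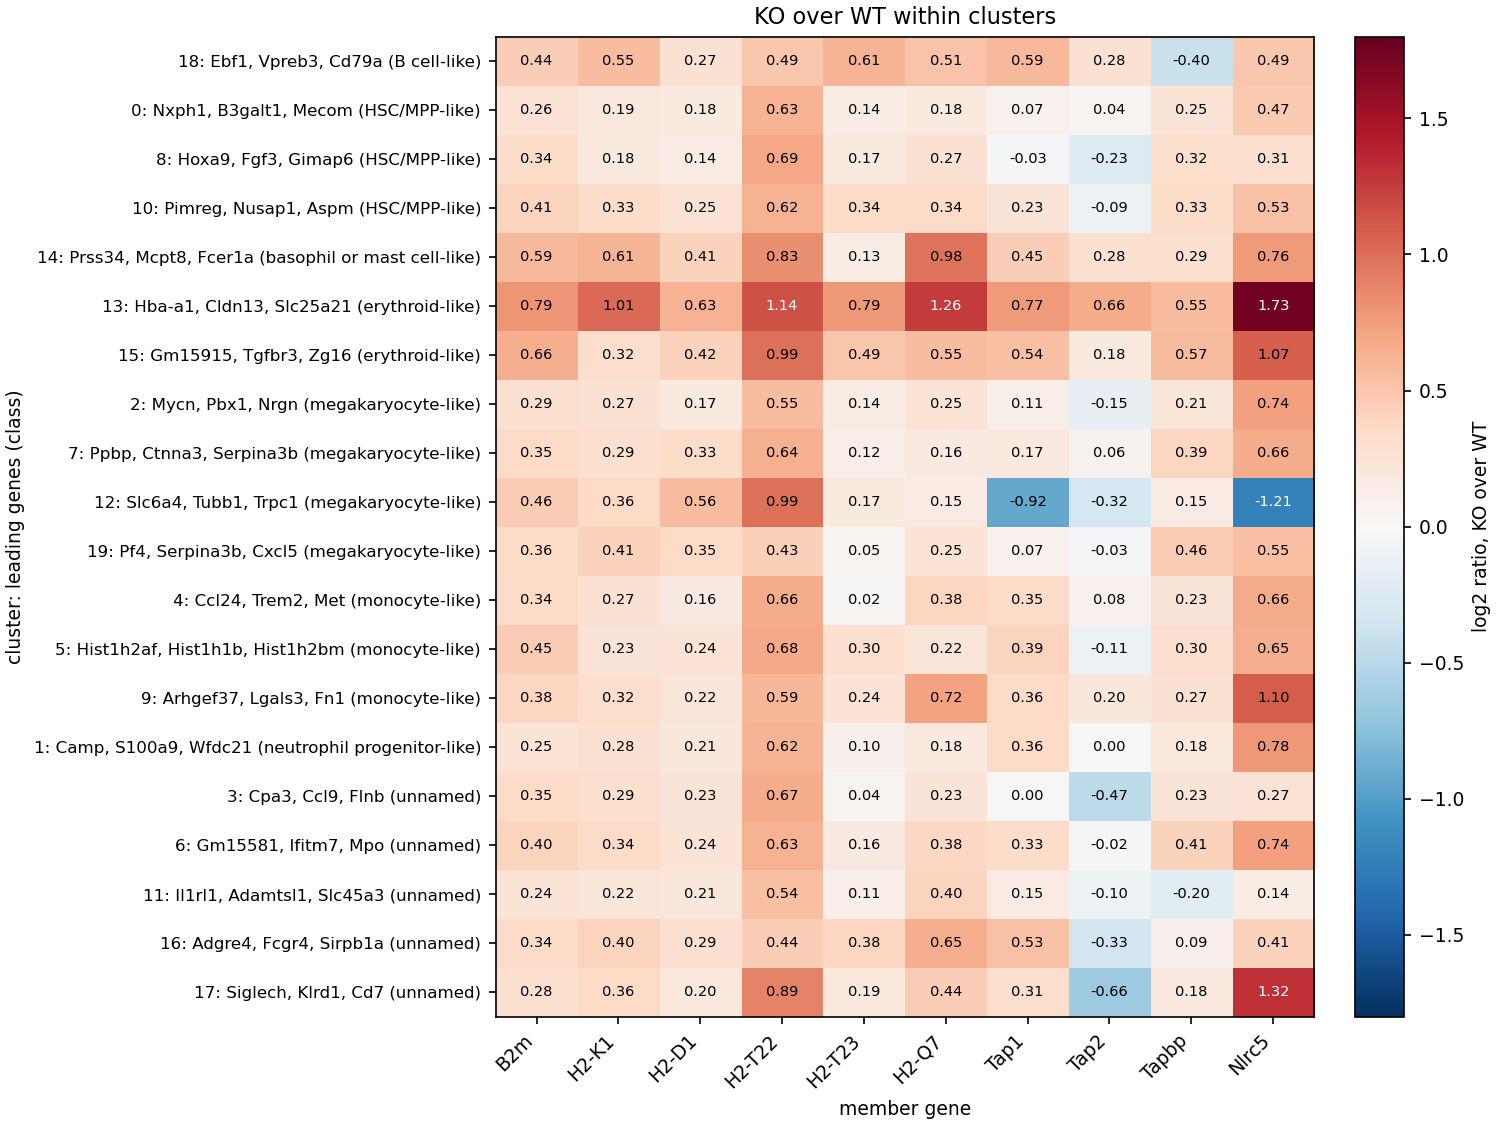
Log2 ratio of KO over WT for each member (columns) in each of 20 clusters (rows, with leading genes and class), red for higher in KO and blue for lower. The B2m and H2 columns are red throughout, Tap2 is mixed, and the row of cluster 13 (Hba-a1) is the reddest, with Nlrc5 at 1.73.

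Levels differed more between clusters than between libraries. B2m ran from 581 CPM in cluster 12 to 3872 CPM in cluster 16 in KO, and from 423 CPM to 3059 CPM between the same clusters in WT. Cluster 16, unnamed, has Adgre4, Fcgr4 and Cd300e on top, genes of patrolling monocytes and macrophages in mouse, and a median of 6727 UMIs per cell. It was also the highest for H2-K1 (2891 CPM in KO, 2189 CPM in WT), H2-D1 (3335 CPM in KO, 2730 CPM in WT) and Tapbp (183 CPM in KO, 172 CPM in WT). Macrophage markers in it summed to 3772 CPM in KO and 1757 CPM in WT. Cluster 12, with the platelet genes Tubb1 and Gp6, is a megakaryocyte-like cluster of low depth (median 3328 UMIs) and was the lowest for H2-K1, at 230 CPM in KO and 180 CPM in WT, and for H2-Q7, at 72.1 CPM in KO and 65.1 CPM in WT. The other megakaryocyte-like clusters were far above it, with H2-K1 from 1005 to 1486 CPM in KO and from 754 to 1234 CPM in WT.

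H2-Q7 followed another order than H2-D1. It was highest in cluster 10, HSC/MPP-like cells with the mitotic genes Aspm and Cenpf on top, at 736 CPM in KO and 580 CPM in WT, and low in monocyte-like cells, at 117 CPM in KO and 91.6 CPM in WT. H2-K1 was likewise low in monocyte-like cells, at 798 CPM in KO and 656 CPM in WT, and over clusters it went with H2-Q7 (Pearson r = 0.78) as closely as with H2-D1 (0.74). H2-D1 was at 1206 CPM in KO and 1029 CPM in WT in monocyte-like cells, with intervals that overlap those of HSC/MPP-like cells (1181 CPM in KO, 1041 CPM in WT). Over the 5 classes with at least 100 cells in each library, 7 of 10 members had their highest level in HSC/MPP-like cells in both libraries, as did 18.1% of all genes. The others were H2-D1, Tap1 and Tapbp, and Tapbp was highest in monocyte-like cells in both, at 92.0 CPM in KO and 75.3 CPM in WT. With B cell-like and basophil or mast cell-like cells included, no member was highest in HSC/MPP-like cells in KO. B2m, H2-K1, H2-D1 and H2-Q7 then led in B cell-like cells, and H2-T22, H2-T23, Tap2 and Tapbp in basophil or mast cell-like cells. The KO intervals of B2m, H2-T22, H2-Q7 and Tap2 overlap those of HSC/MPP-like cells. In WT, B2m, H2-K1, H2-Q7, Tap1 and Tap2 were still highest in HSC/MPP-like cells. Nlrc5 was highest in B cell-like cells, at 104 CPM in KO and 74.0 CPM in WT, from 35 UMIs in each.

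For B2m the order of the 7 classes in KO was B cell-like (1981 CPM), HSC/MPP-like (1904 CPM), basophil or mast cell-like (1887 CPM), megakaryocyte-like (1634 CPM), erythroid-like (1417 CPM), monocyte-like (1277 CPM) and neutrophil progenitor-like (880 CPM). The first 3 do not differ beyond their counting intervals. In WT the order was HSC/MPP-like (1495 CPM), B cell-like (1461 CPM), megakaryocyte-like (1315 CPM), basophil or mast cell-like (1256 CPM), monocyte-like (958 CPM), erythroid-like (821 CPM) and neutrophil progenitor-like (746 CPM). There HSC/MPP-like and B cell-like cells overlap, as do megakaryocyte-like and basophil or mast cell-like cells. Erythroid-like cells stood above monocyte-like cells in KO and below them in WT.

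**Figure D4:**
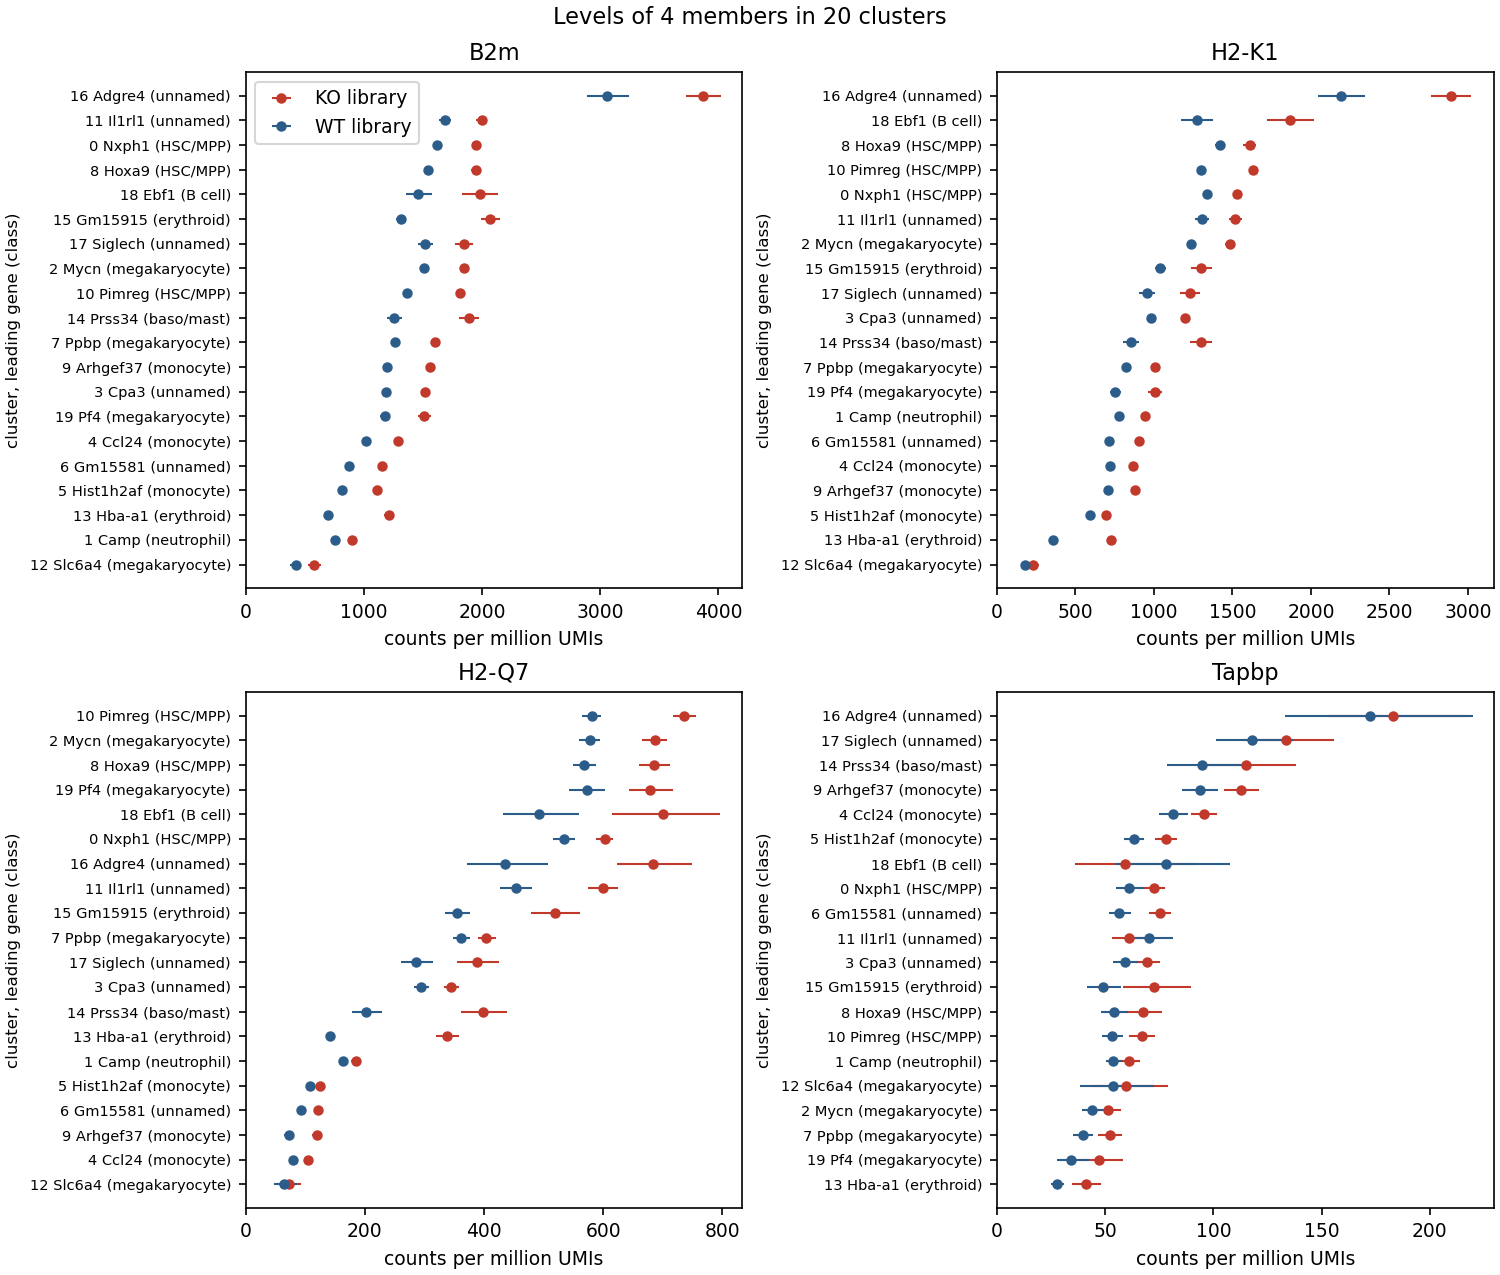
Level of 4 members, in CPM with 95% counting intervals, in each of 20 clusters in the KO (red) and WT (blue) library. KO points lie right of WT points for B2m in every cluster, and cluster 16 (Adgre4), at 3872 in KO and 3059 in WT, stands apart.

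Over the 20 clusters, with the libraries pooled, the members varied together to different degrees. These correlations of log2(CPM + 1) share libraries and depth and are descriptions only. B2m went most closely with H2-K1 (Pearson r = 0.94), Nlrc5 with B2m (0.85) and H2-K1 (0.83), and Tapbp with H2-D1 (0.82), while H2-Q7 and Tapbp were unrelated (-0.06). There were 3570 genes at a mean of 50 CPM or more over clusters. Among these, with the members left out of the ranking, those most like Nlrc5 included Rftn1 (0.91), Tcf7l2, Cdkal1 and Dennd1b (0.86). Those most like H2-K1 were Rftn1 (0.94), H2-Q6 (0.93), Dennd1b, Pde3b and Rsrc1, and those most like B2m were Enox2 (0.95), Ppil2, Dennd1b, Rftn1 and Zmiz1. Tapbp shared none of these, and was most like Fuca1 (0.94), Ikbkb, Itgal, Ccdc50 and Tet2.

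Other genes of the pathway were compared over all cells, as counts past 1.5-fold beside the 2.04% of all genes that were so much higher. Of other class I and class I-like chains, 5 of the 12 listed genes were measured at 10 CPM or more, 0 were past 1.5-fold, and the median log2 ratio was 0.38. H2-Q4 stood at 51.0 CPM in KO and 37.2 CPM in WT (0.45) and H2-M3, which presents formylated peptides, at 29.7 CPM in KO and 22.8 CPM in WT (0.38). Subunits of the immunoproteasome and its activator PA28, the interferon-induced peptide cutters, had a median of 0.10 with 0 of 5 past 1.5-fold: Psmb9 was at 216 CPM in KO and 176 CPM in WT (0.29) and Psmb8 at 444 CPM in KO and 386 CPM in WT (0.20). The catalytic subunits they replace, Psmb5, Psmb6 and Psmb7, were slightly lower in KO (median -0.09), each with an interval below 0. The loading chaperones and trimming peptidases had a median of 0.12 (0 of 6), with the aminopeptidase genes Lnpep at 0.32 and Erap1 at 0.23, Tapbpl at 0.29, and the chaperone gene Calr at -0.12.

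Of 8 interferon and NF-kB regulators described here 3 were past 1.5-fold, with a median log2 ratio of 0.43. Stat2 was at 22.03 CPM in KO and 12.6 CPM in WT (0.81, 0.71 to 0.90), Irf7 at 18.6 CPM in KO and 10.4 CPM in WT (0.85) and Irf1, a direct activator of class I promoters, at 42.5 CPM in KO and 25.2 CPM in WT (0.76). The RFX, NF-Y and CREB partners of NLRC5 had a median of 0.06 (0 of 6), the same as all genes, with Creb1 at 0.27 and Nfya at 0.22. Of the 8 partners listed, Rfx5 (0.34) and Rfxank (0.15) lay under 10 CPM and were left out. Rfxap (0.01) was thus the only RFX gene counted. Interferon receptors and their kinases had a median of 0.24 (0 of 7), with Ifnar1 at 0.44 and Ifngr1 at -0.13. The interferon response list had 11 of 17 genes past 1.5-fold and a median of 0.82, led by Iigp1 at 28.6 CPM in KO and 4.74 CPM in WT (2.60). Of the MHC class II genes 1 of 7 was past 1.5-fold, H2-Eb1 at 50.3 CPM in KO and 33.4 CPM in WT (0.59), and Cd74, the class II chaperone, was at -0.04.

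**Figure D5:**
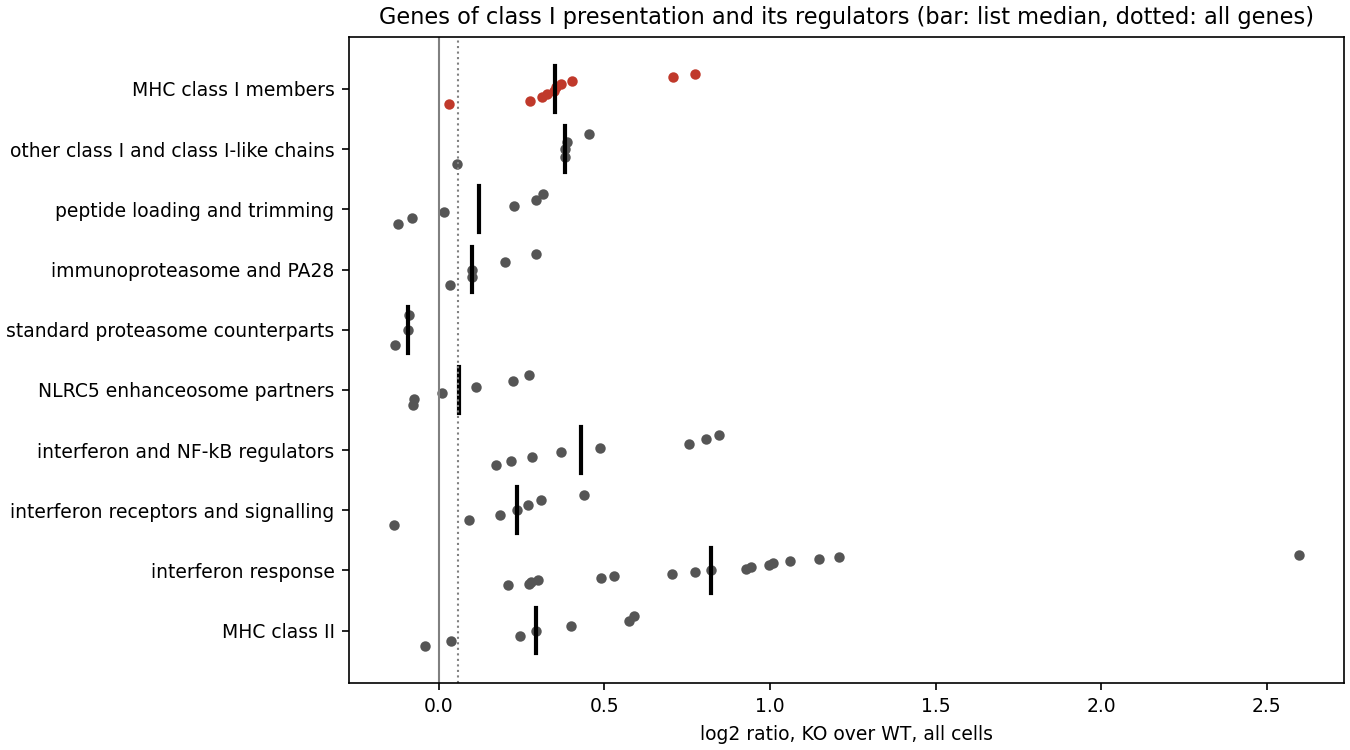
Log2 ratio of KO over WT over all cells for the genes of each list, 1 point per gene measured at 10 CPM or more, with a bar at the list median and a dotted line at the median of all genes (0.06). The interferon response (0.82) and the interferon and NF-kB regulators (0.43) lie furthest right, and the standard proteasome subunits (-0.09) lie left of 0.

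Irf1 and Stat2 were also higher in several classes. Irf1 stood at 69.5 CPM in KO and 38.6 CPM in WT in HSC/MPP-like cells (log2 ratio 0.85, 0.72 to 0.98), at 39.2 CPM in KO and 23.3 CPM in WT in monocyte-like cells (0.75), at 16.1 CPM in KO and 10.7 CPM in WT in megakaryocyte-like cells (0.59) and at 35.0 CPM in KO and 27.2 CPM in WT in neutrophil progenitor-like cells (0.36). Stat2, a subunit of the interferon-activated factor ISGF3, stood at 23.9 CPM in KO and 11.04 CPM in WT in HSC/MPP-like cells (1.12) and at 29.7 CPM in KO and 18.7 CPM in WT in monocyte-like cells (0.67). In erythroid-like cells, where the class I genes differed most, Irf1 was at 18.9 CPM in KO and 5.92 CPM in WT (1.68, 1.25 to 2.10) and Stat2 at 16.3 CPM in KO and 8.88 CPM in WT (0.88). In basophil or mast cell-like cells Irf1 was at 44.9 CPM in KO and 56.7 CPM in WT, from 46 and 72 UMIs (-0.34, -0.90 to 0.22), and 0 of 7 regulators were past 1.5-fold higher. The interferon response list had its lowest class median there too (0.32, with 4 of 14 past 1.5-fold against 10.5% of genes). The class I median there was 0.52. Whether the regulators bear on the class I genes in any class was not tested. All these ratios compare the same pair of libraries, so their likeness across classes is no independent support.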

How the data were processed

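The authors deposited raw UMI counts for each gene in each cell barcode. Cell Ranger 6.0.2 is named per the file headers, and Cell Ranger 3.0.1 and GRCm38 per the submitters' processing notes; the sources used here do not give an annotation release. Barcodes with under 500 genes (32 KO, 51 WT) or over 10% mitochondrial UMIs (314 KO, 553 WT) were left out, and then the highest Scrublet scores, 0.8% of barcodes per 1000 barcodes (221 KO, 224 WT), since Scrublet's own threshold (87 KO, 85 WT) was not used. Libraries were clustered together without integration on 2000 variable genes, 30 principal components, 15 neighbours and Leiden resolution 1, without MHC, haemoglobin, mitochondrial, sex-linked or ribosomal protein genes. A cluster took a class name when its markers had a median log2 fold of at least 1, at least 3 were detected in 25% of its cells and its top 10 genes did not favour another class. A cluster led by another class's marker stayed unnamed, a rule added after seeing the data.

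Counts were summed per library, class or cluster, and CPM ratios were taken for genes at a mean of 10 CPM or more, with exact 95% intervals. Cells of 1 library are not replicates, so no p-value was computed. UMI intervals cover counting error only. The interval calculation was run on simulated Poisson counts, the error it assumes, so that run does not bear on spread between cells or mice. All members were named; of other lists, members by size of ratio were. The member genes, gene lists and markers were chosen with earlier results of these data known. Alternatives covered cell filters, doublets, scaling, cell mix, CPM minimum and clustering. Tools were Python 3.11.15, scanpy 1.11.5, leidenalg 0.10.2, scipy 1.17.1, R 4.3.3 and edgeR 4.0.16 (TMM factors only). Protein sequences and vector reads were not used here. A gene of the regulator list and a gene correlated with Nlrc5 are not reported here.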

Additional observations from a re-analysis of the deposited data

Results flagged for a closer look

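In 3 cases a member differed by at least 1.5-fold in opposite directions in different clusters, and the difference between clusters was not tested. Nlrc5 had a log2 ratio of KO over WT of -1.21 in cluster 12, from 4 UMIs in KO and 9 UMIs in WT, against 1.73 in cluster 13. Tap1 had -0.92 in the same cluster 12, from 6 UMIs in KO and 11 UMIs in WT, and both of these intervals include 0. Tap2 had -0.66 in cluster 17, from 69 UMIs in KO and 134 UMIs in WT, against 0.66 in cluster 13. Cluster 12 holds low-depth cells with a median of 3328 UMIs.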

How the results depend on the processing

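No paired analysis was possible because each genotype has 1 library, and for the same reason no replicate could be left out. The median log2 ratio of the 10 genes over all cells (0.35) was 0.29 with TMM scaling and with a median of ratios, 0.39 with classes weighted alike, 0.32 with clusters weighted alike and 0.28 with pooled cluster shares; the count past 1.5-fold was 1 in place of 2 at a minimum of 50 CPM, which leaves out Nlrc5. In HSC/MPP-like cells the median (0.24) was 0.19 at resolution 0.5 and 0.17 with doublets kept and with TMM scaling. In erythroid-like cells (0.76) it was 0.87 with classes by marker score and 0.62 with TMM scaling. In megakaryocyte-like cells (0.27) it was 0.30 at resolution 2, with MHC genes kept and with marker scores, 0.31 with doublets kept and 0.20 with TMM scaling. The count past 1.5-fold with TMM scaling within a class, an alternative chosen after seeing the data, was 0 in place of 2 in HSC/MPP-like cells, 3 in place of 5 in basophil or mast cell-like cells, 1 in place of 2 in B cell-like cells and 7 in place of 9 in erythroid-like cells. The cause of these shifts was not tested, beyond the TMM factors themselves. These moved every ratio by -0.07 over all cells, in HSC/MPP-like and in megakaryocyte-like cells. They moved ratios by -0.15 in erythroid-like cells, by -0.14 in cluster 13 and by -0.10 in cluster 15. In neutrophil progenitor-like cells the move was upward, by 0.05, as in cluster 1, by 0.04. The order of the class medians was not stable to this scaling. By CPM the lowest was 0.20, in neutrophil progenitor-like cells, and with TMM scaling it was 0.17, in HSC/MPP-like cells. Of the single genes, 9 kept a ratio above 0 in each alternative run, with H2-T22 between 0.64 and 0.71 and Nlrc5 between 0.64 and 0.79; H2-T23 (0.27) was 0.16 with pooled cluster shares and Tapbp (0.37) 0.21 with classes or clusters weighted alike, while Tap2 ran from -0.07 to 0.13 and was above 0 in 7 of 11. At resolution 0.5 no neutrophil progenitor-like class, and with the stricter cell filter no B cell-like class, was left to compare. Depth limits Nlrc5, Tap1 and Tap2 in small clusters, where the lowest counts were 4, 6 and 19 UMIs in KO.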
